A study of Mus musculus with 3 samples.

Results

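Binding of ZFP410 was examined at 35 genes of prostaglandin E2 (PGE2) and cyclic AMP (cAMP) signalling, out of 21887 protein-coding genes placed on chromosomes. The genes were chosen by name, with some of their peaks already known. They comprise 4 PGE2 receptor genes, 5 genes of PGE2 synthesis, 2 of its uptake and breakdown, 9 adenylyl cyclase genes, 6 protein kinase A (PKA) subunit genes, 4 phosphodiesterase genes and 5 genes of the CREB family and its coactivators. ZFP410 is a zinc finger protein that binds DNA. It was mapped with CUT&Tag, a method in which an antibody brings a transposase to the bound protein so that nearby DNA is cut, tagged and sequenced. All cells were brown preadipocytes, the precursors of thermogenic fat cells, sorted as Lin-CD29+CD34+Sca1+ from brown adipose tissue of male wild-type C57BL/6 mice. The first library was made with a ZFP410 antibody on untreated cells (0 days in differentiation medium). The second used the same antibody on cells given brown adipocyte differentiation medium for 3 days, called induced below. The third was made with control IgG on untreated cells. Each group holds 1 library, so the differences below compare libraries and carry no test, and the spread between cultures is unknown.

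PGE2 is made from arachidonic acid by the cyclooxygenases and the PGE synthases, and acts on cells through its receptors EP1 to EP4. EP2 and EP4 couple to Gs and raise cAMP, EP3 couples to Gi and lowers it, and EP1 acts through calcium. Adenylyl cyclases make cAMP and phosphodiesterases destroy it. In brown fat cAMP activates PKA, which drives lipolysis and, by phosphorylating CREB family factors, the thermogenic gene programme. The title of the study concerns the EP3 receptor, encoded by Ptger3, in brown fat development.

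The peak lists held 3256 untreated, 7475 induced and 480 IgG peaks. The median peak had 4, 7 and 4 fragments at its summit in the 3 lists, and the lowest numbers called were 3, 4 and 2. The genome-wide background was 0.110, 0.246 and 0.0231 fragments, so the induced library needed 2.24 times as many fragments as the untreated one for the same enrichment. Intervals are 95% intervals and cover counting error only.

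ZFP410 was listed at or inside 15 of the 35 genes, most often within the gene body and away from its ends. Of all coding genes 18.3% had such a peak in either library, with 7.82% for untreated and 15.8% for induced cells, but the 35 genes are longer than most, as described below. The strongest sites lay inside Pde1a, which encodes a calcium- and calmodulin-dependent phosphodiesterase, and inside Ptgs1, which encodes cyclooxygenase 1. Both were present before and after induction. Upstream of Atf1, a CREB family gene, a peak was listed in the induced library alone. The PGE2 receptor genes, Ptger3 included, carried no ZFP410 peak in either library. Of the 15 genes 5 had a peak in both ZFP410 libraries (Ptgs1, Pde1a, Pde4d, Creb1 and Ep300), 9 in the induced one alone and 1, Adcy4, in the untreated one alone. Over all coding genes 5.29% had a peak in both. At Pde4d and Ep300 the untreated and induced peaks were at different positions, which leaves 3 sites shared between the lists.

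**Figure D1:**
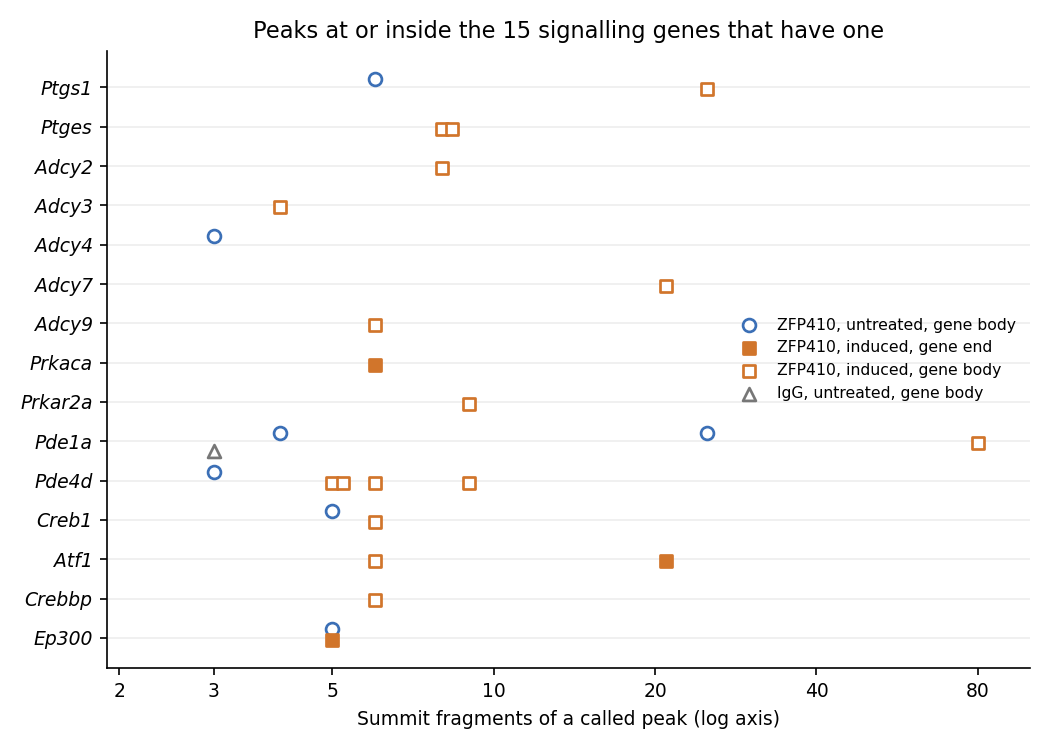
Number of fragments at the summit of each called peak (horizontal, log axis) for the 15 signalling genes with a peak. Circles are the untreated ZFP410, squares the induced ZFP410 and the triangle the IgG library; filled symbols lie within 1 kb of a gene end and open ones deeper inside the gene, and equal values are drawn side by side. Pde1a reaches 80 fragments in the induced library, and the only IgG peak, of 3 fragments, is also in Pde1a.

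A gene end is here the first or last base of a gene, and a peak was counted at it when its summit lay within 1 kb. In the induced library 3 of the 35 genes (8.57%, Wilson interval 2.96 to 22.4) had a gene-end peak, where 8.43% of all coding genes did. In the untreated library 0 of 35 had one (Wilson interval 0 to 9.89), against 3.73% of all coding genes. IgG gave 0 of 35, with 0.0366% of all coding genes. The induced gene-end share of these genes was close to that of all coding genes, and the 0 of the untreated library allows the background share. The 3 induced genes were Atf1, Ep300 and Prkaca, whose peaks were known when the 35 genes were chosen. Their share and its interval are therefore not an independent estimate. At a −log10 q of at least 5, induced gene-end genes numbered 1. Genes with a peak deeper inside, described next, then numbered 6 induced and 2 untreated. The share of all coding genes was not computed at that threshold, so these counts have no background beside them.

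Peaks deeper inside the gene, over 1 kb from both ends, were present in 12 of 35 genes in the induced library (34.3%) and in 6 in the untreated library (17.1%). Among all coding genes the shares were 8.21% and 4.36%, and 0.493% in the IgG list, where 1 of the 35 had one. The signalling genes are long, with a median of 71.4 kb against 17.2 kb for all coding genes, and long genes hold more peaks. Of the 11 signalling genes among the longest 10% of coding genes (at least 109 kb) 5 had such an induced peak and 2 an untreated one, where 34.8% and 18.3% of coding genes of that length did. Of the other 24 genes 7 had an induced and 4 an untreated one, against 5.26% and 2.81% of the shorter coding genes. Those 24 genes are still longer at the median than their comparison group (37.5 against 14.4 kb). Counted per length, the 35 genes held 3.45 such summits per Mb in the induced and 1.51 in the untreated library, and all coding genes 2.36 and 1.10. These densities rest on 16 and 7 summits. They differed by length. The 11 long genes held 2.23 and 0.835 per Mb, against 1.98 and 0.885 in coding genes of that length, from 8 and 3 summits. The other 24 held 7.64 and 3.82, against 2.87 and 1.39, from only 8 and 4 summits. Among those 8 are the pair in Ptges and the Adcy7 peak, which stood over a local background 21.5 times that of the genome.

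**Figure D2:**
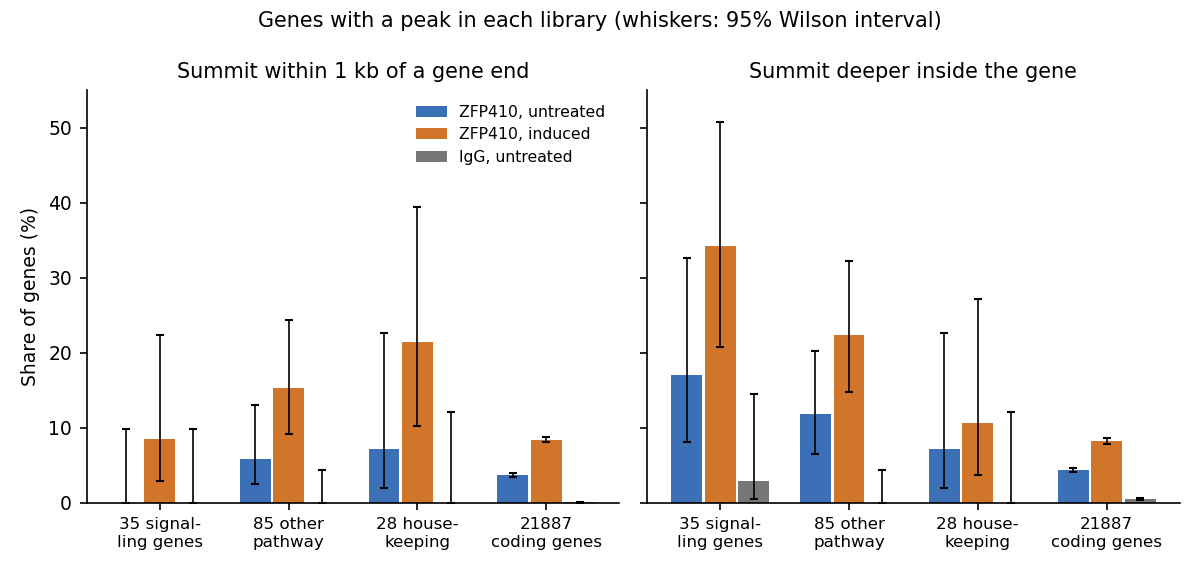
Share of genes (vertical, %) with a summit within 1 kb of a gene end (left) and with a summit deeper inside the gene (right), for the 35 signalling genes, 85 other genes of the pathway, 28 housekeeping genes and all coding genes. Bars are single libraries and whiskers are Wilson intervals; the induced bar of the 35 genes is at 8.57% on the left and 34.3% on the right.

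The receptors come first in the pathway. Ptger3 (chromosome 3, 157566821 to 157644758, mm10) had its nearest untreated summit 238 kb below the gene, a peak of 4 fragments closest to Negr1. The nearest induced summit was 302 kb above it, with 7 fragments, inside Ankrd13c. Of all coding genes 55.2% had an untreated and 81.5% an induced summit as near or nearer, so Ptger3 lay farther from the induced sites than most genes. Ptger2, encoding EP2, was farther still, at 321 and 435 kb, and of the 35 genes it lay farthest from an induced summit. Ptger1, encoding EP1, was 58.5 kb from a site present in both lists with 6 and 11 fragments, but that site lay 18 and 77 bp from Dnajb1, a cochaperone gene.

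Ptger4, encoding EP4, had peaks for which it was the closest coding gene, all beyond the end of the gene where transcription starts. One site at 111 kb (chromosome 15, 5355386 to 5356128 in the untreated and 5355436 to 5355947 in the induced list) held 9 and 11 fragments. Its enrichment over the genome background in the induced library was 0.546 times that in the untreated one (0.206 to 1.49), an interval that includes 1. Further induced peaks of 4 and 9 fragments lay at 69.0 and 527 kb, and an IgG peak of 4 fragments at 125 kb. The induced peak at 527 kb stood over a local background 5.32 times that of the genome. Its authors' fold of 4.33 ranked 6322 of 7475.

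Among the synthesis genes, Ptgs1 carried a site inside the gene in both lists. It lay at 36247921 to 36248285 on chromosome 2 in the untreated list and at 36247921 to 36248464 in the induced list, with summits 1 bp apart, 17742 bp downstream of the listed transcription start in the induced library. The untreated peak held 6 fragments and ranked 615 of its list by the authors' fold, and the induced one held 25 and ranked 121. IgG, also from untreated cells, had no peak there. The enrichment of the untreated peak would have given 1.26 IgG fragments, below the lowest called number of 2, and that of the induced peak 2.34. The missing IgG peak therefore says little about the untreated site. The induced to untreated ratio of enrichment was 1.86 (0.745 to 5.54), an interval that includes 1, as it did when scaled by depth or by the median ratio of shared peaks. Further induced peaks of 5 fragments each had Ptgs1 as their closest gene, 17995 and 41409 bp beyond it. The one at 41409 bp stood over a local background 2.33 times that of the genome.

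Ptges, which encodes the inducible microsomal PGE synthase, had a pair of peaks in the induced list alone, at 30913196 to 30913384 and 30927222 to 30927740 on chromosome 2. Each held 8 fragments. The same enrichment would have given 3.57 in the untreated library, just above the 3 of the weakest untreated peak. Both lay inside the gene as annotated but 9944 and 24258 bp upstream of the 1 start listed for it. Ptgs2, encoding cyclooxygenase 2, had no peak; its nearest site, shared by both lists, was 72.6 kb away with 4 and 7 fragments. Ptges2 and Ptges3, the latter encoding the cochaperone p23, which also has PGE synthase activity, had none either. Their nearest induced summits, at 16.7 and 226 kb, lay inside Slc25a25 and 55 bp from Pan2.

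PGE2 is cleared by the transporter encoded by Slco2a1 and the dehydrogenase encoded by Hpgd. Neither had a peak. Hpgd was the closest gene to an untreated peak of 4 fragments 14.3 kb upstream and to a separate induced peak of 8 fragments 16.1 kb upstream. Slco2a1 was closest to an untreated peak of 5 fragments at 34.6 kb, and its nearest induced summit was 202 kb away.

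Adenylyl cyclase genes differed from one another in place and library. In the induced list 4 of the 9 had a gene-body peak, namely Adcy2, Adcy3, Adcy7 and Adcy9 with 8, 4, 21 and 6 fragments. The median length over the 9 is 115 kb. Adcy2 and Adcy9 are among the longest 10% of coding genes, of which 34.8% had such a peak. Adcy3 and Adcy7, at 80.4 and 57.8 kb, are not, and 5.26% of the shorter coding genes had one. The Adcy7 peak (chromosome 8, 88298099 to 88298310) stood over a local background 21.5 times that of the genome, and its authors' fold of 3.50 ranked 7344 of 7475. At Adcy2, Adcy3 and Adcy9 this enrichment would have given 3.57, 1.79 and 2.68 untreated fragments, around the lowest number that was called. The Adcy9 summit lay 1388 bp from the end of the gene, just outside the gene-end window. Adcy4 was the reverse case, with an untreated peak of 3 fragments 2742 bp downstream of its start (chromosome 14, 55781307 to 55781466). The same enrichment would have given 6.72 induced fragments, yet the nearest induced summit was 87.1 kb away. Adcy1, Adcy5, Adcy6 and Adcy8 had no peak in either list. Adcy5 was the farthest of the 35 genes from an untreated summit, at 2756 kb, and lay 170 kb from an induced one.

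PKA is a tetramer of catalytic and regulatory subunits. Prkaca, encoding the main catalytic subunit, had a gene-end peak of 6 fragments in the induced list alone (chromosome 8, 83972675 to 83972926). Its summit was 214 bp upstream of a listed transcription start. The same enrichment would have given 2.68 untreated fragments, just below the lowest called number of 3, so the missing untreated peak is within what this depth allows. The regulatory subunit gene Prkar2a had an induced peak of 9 fragments 12516 bp into the gene, which would correspond to 4.02 untreated fragments. Prkar1a, encoding the RIα subunit, was the nearest of the remaining genes to a site. A peak 1699 and 1698 bp beyond the gene, outside the window, held 8 and 15 fragments with an induced to untreated ratio of 0.837 (0.333 to 2.28), but it lay inside the neighbouring gene Fam20a. Prkar2b was likewise 8.13 and 8.16 kb from a shared site inside Hbp1, with 8 and 22 fragments and a ratio of 1.23 (0.526 to 3.19). An induced peak of 7 fragments 47.7 kb away had Prkar2b as its closest gene. Prkacb and Prkar1b had no peak, and their nearest induced summits were 71.2 and 102 kb away.

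The phosphodiesterase genes held the strongest site. Inside Pde1a (chromosome 2, 79834453 to 80196522) a peak at 80046909 to 80047407 in the untreated list held 25 fragments and ranked 8 of 3256 by the authors' fold. The induced peak at 80046797 to 80047429 held 80 and ranked 6 of 7475, with its summit 4 bp from the untreated one. Over the genome background these are 227-fold and 325-fold. The ratio was 1.43 (0.902 to 2.34), an interval that includes 1. Whether it does depends on the scale. Scaled by the depth of the libraries the ratio was 1.60 (1.01 to 2.61), and scaled by the median ratio of 1296 shared peaks, 0.826, it was 1.73 (1.09 to 2.83). The induced summit was 8171 bp upstream of the closest of 4 starts listed for Pde1a. IgG had no peak there. The enrichment of the untreated peak would have given 5.25 IgG fragments and that of the induced peak 7.49, above the 2 of the weakest IgG peak. Of the 26 ZFP410 peaks at or inside the 35 genes, only 3 would have reached that number in the IgG library: both Pde1a peaks at this site and the induced one at Ptgs1.

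A second untreated peak inside Pde1a, at 79937415 to 79937586, behaved otherwise. It held 4 fragments and overlapped the only IgG peak within the 35 genes, at 79937316 to 79937844, of 3 fragments. Over the genome background of its own library the IgG peak stood at 130 and the untreated ZFP410 peak at 36.4, so the signal there was no higher than in the control. The induced list had no peak at that position.

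Pde4d, which encodes a cAMP-specific phosphodiesterase and spans 1302 kb, had 1 untreated peak of 3 fragments and 4 induced peaks of 5 to 9 fragments. None overlapped another. Of the 4 induced peaks only the one at 109315757 to 109315999 (chromosome 13), with 9 fragments, corresponded to more than 3 untreated fragments, at 4.02. The untreated peak corresponded to 6.72 induced fragments. Pde3b, encoding the phosphodiesterase that insulin activates in adipocytes, and Pde4b had no peak, with induced summits 139 and 123 kb away.

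**Figure D3:**
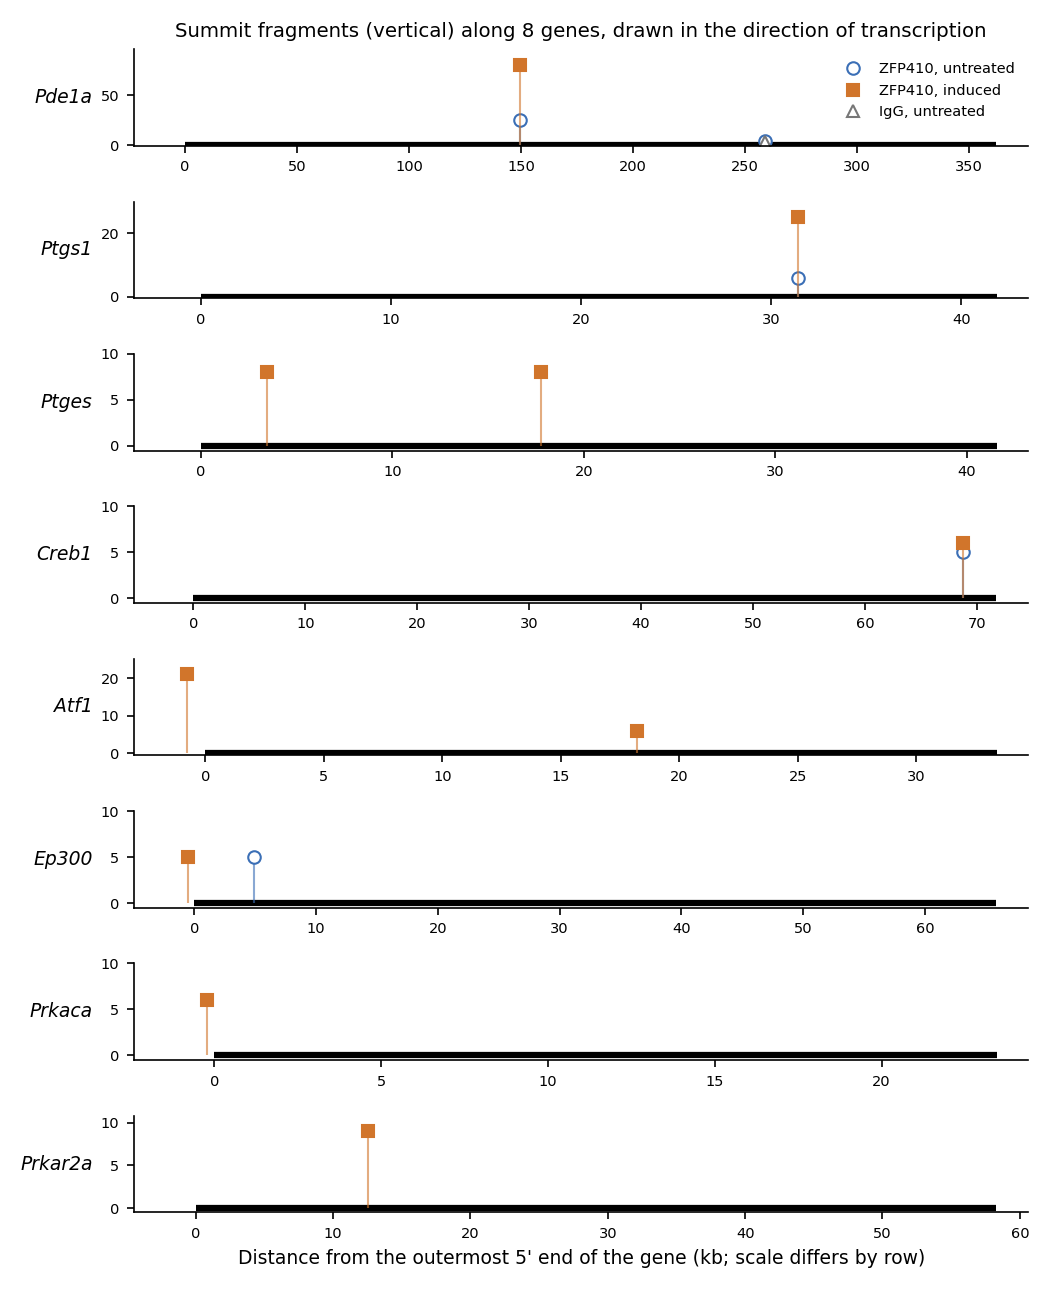
Position of each peak summit (horizontal, kb from the outermost 5' end of the gene, black bar, scale differing by row) and its fragments (vertical, linear) along 8 signalling genes. Circles are untreated ZFP410, filled squares induced ZFP410 and the triangle IgG. At Pde1a, Ptgs1 and Creb1 both ZFP410 libraries mark the same position; at Atf1 and Prkaca only the induced library has a peak.

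CREB family genes and their coactivators were the group with the highest share of occupied genes in the induced library. There 4 of 5 had a peak: Atf1 and Ep300 at the gene end, and Creb1, Crebbp and Atf1 inside the gene. Over all coding genes 15.8% had either kind. The 5 genes have a median length of 71.4 kb, against 17.2 kb for all coding genes, and long genes hold more peaks. The Atf1 and Ep300 peaks were known when the genes were chosen. Atf1 encodes a factor that pairs with CREB on cAMP response elements. Its gene-end peak (chromosome 15, 100226731 to 100227705) held 21 fragments, ranked 204 of 7475 and had its summit 745 bp upstream of the start. The same enrichment would have given 9.37 untreated fragments, above the lowest number called there, yet the nearest untreated summit was 321 kb from the gene. A second induced peak inside Atf1 held 6 fragments.

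Creb1, encoding CREB itself, carried a site near the far end of the gene in both lists (chromosome 1, 64601435 to 64601642 and 64601419 to 64601699). It held 5 and 6 fragments, a ratio of 0.536 (0.136 to 2.22), and lay 2984 bp from the 3′ end in the induced library. Ep300 encodes the acetyltransferase p300, a CREB coactivator. It had an untreated peak of 5 fragments 4876 bp downstream of its start (chromosome 15, 81590978 to 81591129), which would correspond to 11.2 induced fragments, and a separate induced peak of 5 fragments 534 bp upstream of the start (81585511 to 81585681). Crebbp, its paralogue, had an induced peak of 6 fragments, 52568 bp into the gene. Crem, which also encodes the repressor ICER, had none, at 2065 kb from an untreated and 73.2 kb from an induced summit.

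Only 2 of 52 promoters listed for 30 of the 35 genes were touched by an induced peak, those of Atf1 and Prkaca, and none by an untreated or IgG peak. A promoter is here the 250 bases before to 50 bases after a start, and 4.89% of all 32851 listed promoters were touched in the induced list, 1.96% in the untreated one and 0.00609% in IgG. The 2 sequences are shown because they are the only ones of the 52 windows that a peak reached. The induced Ep300 peak ended short of the window of its start. They are from RefSeq (GRCm38.p6), on the plus strand and written 5′ to 3′, chr15:100227609-100227908 for Atf1 and chr8:83972728-83973027 for Prkaca. Capitals mark the bases under the induced peak.
Atf1: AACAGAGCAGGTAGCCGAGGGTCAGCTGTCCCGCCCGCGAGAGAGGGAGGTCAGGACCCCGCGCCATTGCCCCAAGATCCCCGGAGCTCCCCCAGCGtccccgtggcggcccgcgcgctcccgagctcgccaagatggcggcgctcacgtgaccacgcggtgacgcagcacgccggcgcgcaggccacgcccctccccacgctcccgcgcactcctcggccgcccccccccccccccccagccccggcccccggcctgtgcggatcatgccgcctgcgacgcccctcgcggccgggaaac
Prkaca: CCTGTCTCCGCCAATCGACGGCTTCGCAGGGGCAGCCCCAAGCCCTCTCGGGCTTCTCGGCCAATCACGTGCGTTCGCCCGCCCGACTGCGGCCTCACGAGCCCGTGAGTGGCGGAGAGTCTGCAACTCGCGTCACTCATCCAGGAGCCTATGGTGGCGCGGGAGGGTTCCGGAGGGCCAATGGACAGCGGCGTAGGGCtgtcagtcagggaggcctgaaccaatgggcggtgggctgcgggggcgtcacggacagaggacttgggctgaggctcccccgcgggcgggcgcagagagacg

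The Atf1 peak covered 97 bases of this window, from 250 to 154 bases before the start, with its summit further upstream. The Prkaca peak covered 199, from 250 to 52 before the start. Both windows were rich in G and C, at 77.3% and 69.7% against a median of 52.7% over all listed promoters, with 40 and 31 CpG dinucleotides against a median of 7. The letters of the cAMP response element, TGACGTCA, were searched on both strands and occurred in neither. Its first letters TGACG, which are contained in the full element, occurred once in the Atf1 window, 90 bases before the start and outside the peak. On the other strand they occurred in the Prkaca window 120 bases before the start, under the peak, and 6 bases before it. Of all listed promoters 1.79% held TGACGTCA and 20.8% TGACG, and of those under an induced peak 5.42% and 40.8%. Under an untreated peak the shares were similar, at 6.69% and 40.1%. TGACG was in 14 of the 52 promoters here (26.9%). Among the 30 genes with a listed promoter the full element was found at Prkar1a alone, 38 bases after one start and 49 bases before another, which is the same stretch of DNA. The letters CCCATAATA, part of the published ZFP410 motif, were in 0 of the 52 promoters and in 0.0974% of all. Among all promoters under an induced peak 0.312% held them, 5 of 1605, and under an untreated peak 0.467%, 3 of 643.

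Distances to the nearest summit, taken as 0 inside a gene, describe the whole group. The median over the 35 genes was 105 kb in the untreated and 16.7 kb in the induced library, and over all coding genes 193 and 82.2 kb. The induced median depended on the measure and the threshold. Taken to the nearer gene end it was 69030 bp. It was 72618 bp at a −log10 q of at least 5 and 58546 bp at a fold of at least 5. The median of all coding genes was not computed at these settings, so the 82.2 kb cannot be set against them. A summit lay within 10 kb of the gene or inside it for 8 genes in the untreated library (22.9%, against 11.1% of coding genes) and for 16 in the induced one (45.7%, against 21.3%). The length of these genes enters here too, since 0 is reached inside a long gene more readily. For 18 of the 35 genes the nearest induced summit was closer to, or inside, another gene. For 8 genes the nearest summit was the same site in both lists; the 5 of these with no peak of their own were Ptger1, Ptgs2, Adcy1, Prkar1a and Prkar2b. At all 8 the interval of the enrichment ratio included 1 when scaled by genome background, and at 7 of them, all but Pde1a, also when scaled by depth or by the median ratio of shared peaks.

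**Figure D4:**
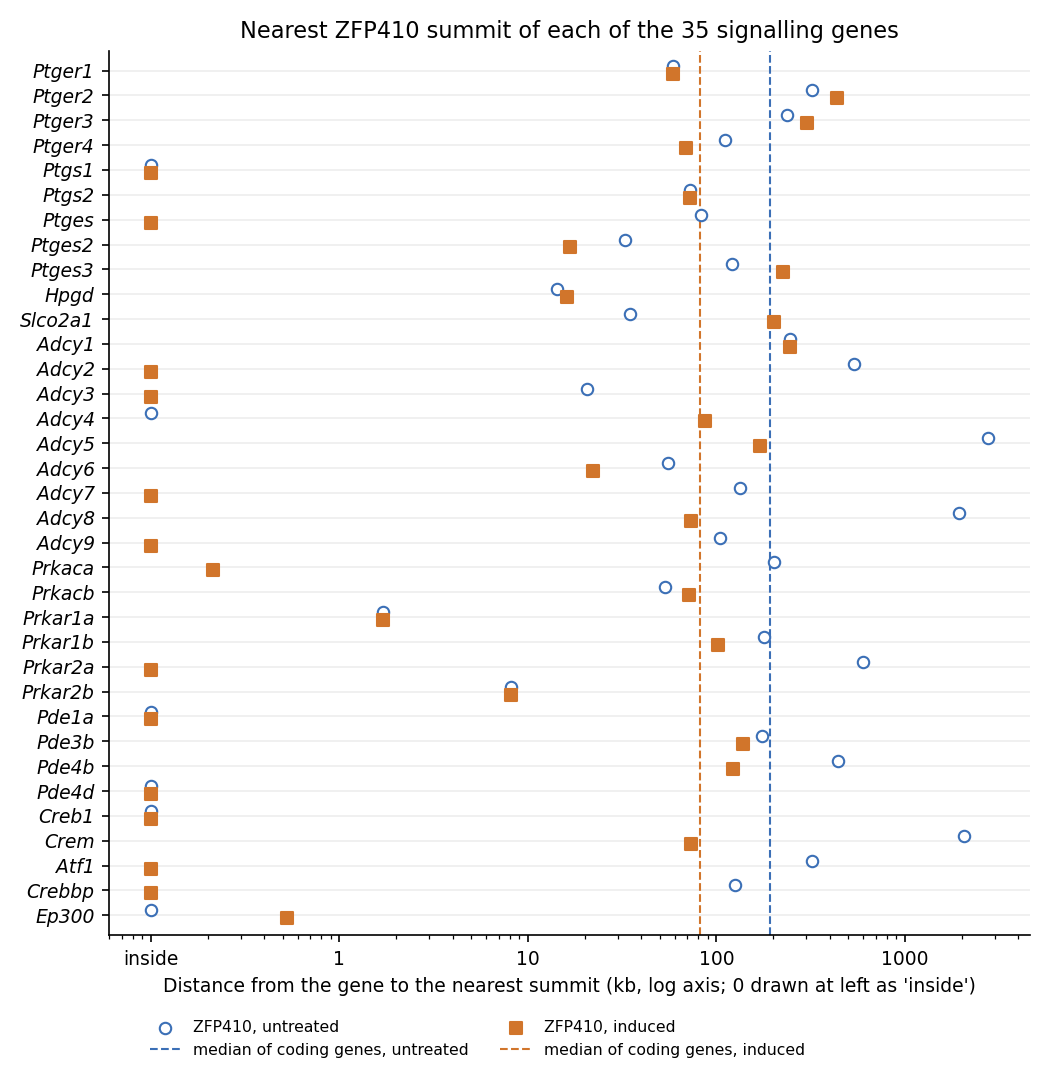
Distance from each of the 35 signalling genes to its nearest ZFP410 summit (horizontal, kb, log axis, with genes that hold a summit at the left) in the untreated (circles) and the induced library (squares). Dashed lines are the medians of all coding genes, 193 kb untreated and 82.2 kb induced; Ptger2 and Ptger3 lie to the right of both lines in both libraries.

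The peaks listed in 1 ZFP410 library alone were read against depth. Of 16 induced peaks with no untreated counterpart, 9 corresponded to fewer than 3 untreated fragments, the lowest number called there. Over the whole list 20.6% of induced peaks overlapped an untreated one, against 3 of 19 at these genes, and of the others 50.6% corresponded to fewer than 3 untreated fragments. Sharing at these genes was thus near that of all peaks. The other 7 were the Ptges pair, Adcy2, Adcy7, Prkar2a, the Atf1 gene-end peak and the strongest Pde4d peak. Depth works the other way for the 4 untreated peaks with no induced counterpart, at Adcy4, Pde4d, Ep300 and the second Pde1a position. All 4 would have held more than the 4 fragments of the weakest induced peak, as would every untreated peak, since the weakest corresponds to 6.72. Of all untreated peaks 47.7% overlapped an induced one, against 3 of 7 here. These expected numbers treat the fragments of a called peak as exact and leave local background aside, so they can be too high. With 1 library per condition, a difference of culture or library and one of induction cannot be told apart.

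The wider pathway was described by 85 further genes. In the induced library 13 of them had a gene-end peak (15.3%, 9.16 to 24.4) and in the untreated one 5 (5.88%, 2.54 to 13.0), beside the 8.43% and 3.73% of all coding genes. Housekeeping genes, 28 in number, stood at 21.4% (10.2 to 39.5) and 7.14% (1.98 to 22.6). Of the G protein genes and their regulators 4 of 15 had a gene-end peak in the induced library (26.7%, 10.9 to 52.0). At or inside the gene 5 of 15 had one (33.3%), where 15.8% of all coding genes did. Gnai2 and Gnai3, which encode Gi subunits of the kind that EP3 couples to, had induced peaks of 7 and 4 fragments. Gnb2, a Gβ gene, had 6. These correspond to 3.12 untreated fragments for Gnai2, 1.79 for Gnai3 and 2.68 for Gnb2. Arrb1, encoding β-arrestin 1, was occupied in both libraries with 5 and 8 fragments, a ratio of 0.714 (0.206 to 2.77).

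Among the other prostanoid receptor genes Ptgfr and Ptgir, for prostaglandin F2α and prostacyclin, had induced gene-end peaks of 5 and 4 fragments. Ptgr2, which encodes a prostaglandin reductase, had an induced one of 5, shared with the neighbouring end of Zfp410 itself. Gipr, a Gs-coupled receptor gene, had an induced gene-end peak of 12 fragments with an authors' fold of 8.57, over a raised local background. It was the only one of 10 such receptor genes with a gene-end peak. Pde4a had an untreated peak of 3. Genes of PKA inhibitors, anchoring proteins and EPAC had gene-end peaks at 0 of 16 in either list (Wilson interval 0 to 19.4). Inside the gene, 4 of the 16 had an induced peak (Akap6, Akap9, Akap13 and Rapgef4) and 1, Rapgef4, an untreated one. Of all coding genes 8.21% and 4.36% had such a peak. The 16 genes are longer than most, with a median of 73.4 kb against 17.2 kb, and long genes hold more peaks.

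Of 17 further CREB family, coactivator and PKA target genes 5 had an induced gene-end peak (29.4%, 13.3 to 53.1) and 3 an untreated one (17.6%, 6.19 to 41.0). Among all coding genes the shares were 8.43% and 3.73%. Crtc3, encoding a CREB coactivator, held 5 and 12 in the 2 libraries, with a ratio of 1.07 (0.351 to 3.88). Atf4, a stress-response factor gene, held 4 and 10, a ratio of 1.12 (0.322 to 4.87). Atf2 and Crtc1 had induced peaks of 7 and 5 fragments. The PKA targets Lipe and Plin1, of lipolysis, had none.

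Peaks do not measure expression, so the cell label could not be checked by marker levels. Of the 6 genes Pdgfra, Ly6a, Cd34, Itgb1, Ebf2 and Prdm16, which mark such precursors, 0 had a gene-end peak in any of the 3 lists. Peaks deeper inside the gene were listed at Pdgfra and Ebf2 in the induced and at Prdm16 in the untreated library. Of all coding genes 8.21% had such an induced peak and 4.36% an untreated one. The length of the 6 genes was not taken into account, and so few genes allow no reading of these peaks. With 6 genes, the background of 8.43% and 3.73% at gene ends allows 0.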

How the data were processed

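The submitters' processing notes name Bowtie2 2.2.6, Picard, MACS2 2.1.1 and the build mm10 for these CUT&Tag libraries. The deposited MACS2 lists, 1 per library, give for each peak a score, a fold ratio over local background at the summit, and the −log10 of the p-value and q-value. The deposited peak names contain a q of 0.1. The caller's control and the treatment of duplicate reads were not given in the sources used here. Ranks and stricter thresholds use the authors' fold and −log10 columns, each within its own list.

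The caller's fold is summit fragments plus 1 over background plus 1, and its p-value a Poisson tail of the same pair. Together they returned whole fragments for 3253 of 3256 untreated, 7471 of 7475 induced and 478 of 480 IgG peaks (gap in −log10 p of at most 0.001). The step was also run on data simulated with these same formulas. That run cannot show whether the deposited columns follow them. Enrichment is fragments over the lowest local background of the list; ratio intervals are exact binomial and shares have Wilson intervals. PCR copies are not independent molecules, so these cover counting error only. Peaks were shared when they overlapped by at least 1 bp. Genes and promoters came from RefSeq (GRCm38.p6, the coordinates of mm10); exons, introns and UTRs were not analysed here. Python 3.11.15, pandas 2.3.3 and scipy 1.17.1 were used.

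The 35 genes, the wider lists and the tests were chosen with earlier results of these data known, among them the Pde1a, Atf1, Prkaca and Ep300 peaks. All 35 are accounted for. From each wider list up to 4 genes with a gene-end peak are named, by the authors' fold; Lipe and Plin1 were added after their values were seen. The split by gene length was planned by deciles and is given for the longest 10% and the rest. Alternatives were stricter thresholds, other windows, distances and scales.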

Additional observations from a re-analysis of the deposited data

How the results depend on the processing

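No paired analysis was possible because each group holds 1 library. Of 88 alternative values for 16 results 63 were counted as the same. This means within 1.5 times a count or median distance, or a ratio's interval on the same side of 1. Another 23 counts or medians moved further, and 2 values changed the Pde1a interval to exclude 1. Some of the 63 could not differ. Local and genome background were equal at the shared sites, their summits lay within 100 bp, and stricter limits cannot lower a count of 0. With −log10 q limited to 5 or more, gene-end peaks were left at 1 of the 35 genes in the induced library and gene-body peaks at 6 in the induced, 2 in the untreated and 0 in the IgG list. Wider genes with a gene-end peak numbered 5 induced and 0 untreated. Median distances were then 535290, 72618 and 15093532 bp in the untreated, induced and IgG lists. At a fold of at least 5 they were 245276, 58546 and 10340987 bp, IgG gene-body genes numbered 0, and wider gene-end genes 7 induced and 2 untreated. A window of 500 bp gave 1 induced gene-end gene, and 8 induced and 2 untreated wider ones; a window of 2 kb gave 5 induced and 1 untreated of the 35. Chosen after seeing the data, a limit to induced peaks expected to reach 3 untreated fragments left 1 gene with a gene-end and 7 with a gene-body peak. To the nearer gene end the induced median was 69030 bp. The Pde1a ratio was 1.60 (1.01 to 2.61) scaled by depth and 1.73 (1.09 to 2.83) scaled by the median ratio of shared peaks; the intervals at Ptgs1, Creb1 and Ptger4 included 1 on every scale tried. Shares and median distances of all coding genes were not computed under these alternatives. Numbers under about 10 fragments limit most single sites.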
